A study of Mus musculus with 63 samples.

Results

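The light-sensitive (LS) neurons of the series were divided here by the transmitter they are marked for, GABA or glutamate. A cell was put on the GABA side when its summed Gad1 and Gad2 level exceeded its summed Slc17a7 and Neurod2 level, and on the glutamate side when the reverse held. Cells in which all of Gfap, S100b and Aqp4, all of Olig1, Olig2 and Mbp, or all 4 neuron markers were above 0 were dropped. Of 44 LS cells looked at, LS_3 to LS_46, 4 were GABA-marked (LS_9, LS_14, LS_15 and LS_39), 30 were glutamate-marked, 9 were dropped, and 1 had none of the 4 neuron markers. The 34 members are part of 63 cells in all, 46 LS and 17 non-light-sensitive (NS).

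All cells were taken in layer 2/3 of V1, the primary visual area, from C57BL/6 wild-type mice aged 70 days, which the study describes as adult males under light isoflurane anaesthesia. Each soma was aspirated through a pipette after its calcium response to a light grating had been imaged, and its mRNA was amplified by Smart-seq2, which copies full-length transcripts of 1 cell. The values are FPKM, fragments scaled by transcript length and by library depth, for 20183 genes. The labels name no mouse. Each side was therefore taken as 1 sample, no test between the sides was made, and every SD is the spread between cells. Smart-seq2 reads carry no molecular identifiers, so intervals on reads or on shares of cells cover counting error only.

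Most neurons of cortical layer 2/3 are pyramidal cells that release glutamate, which the transporter encoded by Slc17a7 loads into vesicles. The remaining neurons release GABA, which the enzymes encoded by Gad1 and Gad2 make from glutamate. Cortical GABA neurons fall into classes marked by Pvalb, by Sst, or by Htr3a, and the last class holds the cells that make vasoactive intestinal peptide (Vip), which mainly contact other GABA neurons.

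The promoters of 4 genes on which the results turn are shown first. Vip and Tac2 encode peptides and were higher on the GABA side, Fos encodes a transcription factor made after strong activity and had its highest levels in GABA-marked cells, and Itpka encodes a kinase of dendritic spines and had no read in any GABA-marked cell. Each sequence is the 250 bases before the RefSeq transcript start in GRCm38.p6, on the plus strand, chr10:5638968-5639217 for Vip, chr10:127724228-127724477 for Tac2, chr12:85473640-85473889 for Fos and chr2:119742087-119742336 for Itpka, with TGACG in capitals, the core of the site bound by the activity-dependent factor CREB. The other strand was searched as CGTCA, which occurred in none of the 4.
Vip: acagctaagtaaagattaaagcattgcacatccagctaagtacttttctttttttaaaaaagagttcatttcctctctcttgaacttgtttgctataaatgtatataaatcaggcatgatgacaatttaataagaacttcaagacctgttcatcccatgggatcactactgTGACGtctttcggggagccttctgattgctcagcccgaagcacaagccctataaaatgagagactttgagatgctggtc
Tac2: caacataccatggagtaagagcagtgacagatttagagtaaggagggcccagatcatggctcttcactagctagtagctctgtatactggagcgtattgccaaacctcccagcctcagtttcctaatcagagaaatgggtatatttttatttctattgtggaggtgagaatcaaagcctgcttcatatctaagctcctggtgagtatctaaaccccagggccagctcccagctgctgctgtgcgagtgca
Fos: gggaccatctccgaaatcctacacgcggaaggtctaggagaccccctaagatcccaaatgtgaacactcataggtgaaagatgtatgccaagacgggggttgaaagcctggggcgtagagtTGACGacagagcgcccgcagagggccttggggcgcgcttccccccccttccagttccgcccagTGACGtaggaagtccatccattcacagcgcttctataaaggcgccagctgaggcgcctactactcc
Itpka: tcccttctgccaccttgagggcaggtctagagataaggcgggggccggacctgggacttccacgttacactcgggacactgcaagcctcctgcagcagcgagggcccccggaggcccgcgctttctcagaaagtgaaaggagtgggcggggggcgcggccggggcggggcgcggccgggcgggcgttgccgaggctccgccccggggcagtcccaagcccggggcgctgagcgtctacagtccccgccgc
The core starts at base -79 of Vip and at bases -129 and -66 of Fos, counted from the start, and these letters are not in the windows of Tac2 and Itpka. Of 32851 promoter windows of this length in the table, 17.8% hold the core on either strand. A match is therefore given as a description, and whether CREB binds there was not tested.

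The members were chosen by the measured levels of Gad1, Gad2, Slc17a7 and Neurod2, which are given as a description. Gad1 was 47.6 FPKM in LS_9, 395 in LS_14, 63.2 in LS_15 and 9.25 in LS_39. Gad2 was 69.7, 297, 31.95 and 0 FPKM in the same order. Slc17a7 and Neurod2 had no read in any of the 4. On the glutamate side, Slc17a7 had its lowest value at 0.575, its median at 82.7 and its highest at 245 FPKM, and Neurod2 was at 0 in 5 of the 30 cells. By difference, the GABA-side member nearest to the boundary was LS_39, with 9.25 FPKM of Gad1 against 0. On the glutamate side it was LS_41, with 1.33 FPKM of glutamate markers against 0. By ratio, the nearest were LS_30, with 33.7 FPKM of glutamate markers against 10.3 of GABA markers, and LS_4, with 16.1 against 4.30. Of the 30 glutamate-marked cells, 5 had Gad1 or Gad2 reads, up to 15.8 FPKM in LS_6. LS_8, with 91.3 FPKM of Gad1 and 166 of Gad2, lay just outside because all of its oligodendrocyte markers were above 0.

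The label neuron was poorly met by some members. LS_39 had the fewest genes above 1 FPKM of the 34 cells, 2207, and 11 of its 23 listed pan-neuronal genes were above 0. Snap25, Syp, Stmn2, Tubb3 and Uchl1 were at 0 there, whereas Stmn3 was at 230 and Eno2 at 42.3 FPKM, above the 194 and 18.9 FPKM of LS_15. The list summed to 324 FPKM in LS_39, against 2556 in LS_9, 5450 in LS_14 and 1102 in LS_15. Its microglia genes summed to 5052 FPKM, with C1qb at 1800, Tyrobp at 807 and C1qa at 722, and 10 of 11 members were above 0. The microglia sum on the glutamate side ran from 22.7 to 4084 with a median of 499 FPKM, below LS_39 in every cell. Its GABA neuron genes other than the rule genes summed to 6.19 FPKM, against 251 to 904 in the other 3 GABA-marked cells. LS_4, LS_13 and LS_41 on the glutamate side also had low pan-neuronal sums of 189, 166 and 200 FPKM, whereas the next glutamate-marked cell had 852. Counts and medians without LS_39 are given with each list of neuronal genes below.

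**Figure D1:**
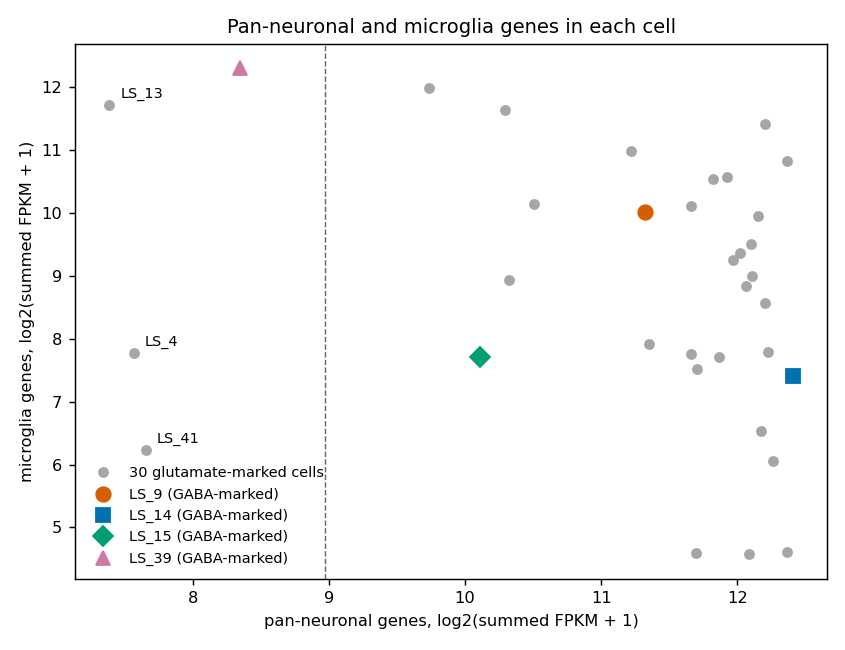
Summed FPKM of pan-neuronal genes (x axis) and of microglia genes (y axis), both as log2(sum + 1), for the 4 GABA-marked cells (coloured) and the 30 glutamate-marked cells (grey). The dashed line marks 500 FPKM, and LS_39 sits to its left with LS_4, LS_13 and LS_41 and has the highest microglia sum, 5052 FPKM.

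LS_9 stood apart in another way. Odorant, vomeronasal and taste receptor genes, which cortical neurons are not known to use, were at 34.5% of the level that reads spread evenly over all exons would give. In the other GABA-marked cells this index was 0.158% to 6.75%, and on the glutamate side it ran from 0 to 20.6% with a median of 2.41%. LS_9 also had the fewest reads of the 4, 369827, against 838530 to 1375920 in the others and 358576 to 2495890 on the glutamate side. Genes above 1 FPKM numbered 7002 in LS_9, 5608 in LS_14 and 5426 in LS_15. The glutamate-marked cells had 3288 to 9980, with a median of 6056, and the medians were 5517 on the GABA side and 5402.5, against 5909, after thinning each cell to 200000 reads. The mitochondrial share of reads was 1.40% to 5.68% on the GABA side and 0.851% to 8.09% on the glutamate side, so the ranges overlapped.

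The size of a difference is the log2 ratio of the mean FPKM of the GABA side to that of the glutamate side, with 1 FPKM added to each, which understates differences of low genes. Of 6244 genes with a mean of at least 10 FPKM on either side, rule genes left out, 592 (9.48%) reached a log2 ratio of 2.5 with the GABA side higher and 910 (14.6%) with the glutamate side higher. The median over these genes was -0.05. When each GABA-marked cell was left out in turn, 47 of the 592 and 797 of the 910 still passed. The 2 counts do not compare, since for 372 of the 910 genes all 4 GABA-marked cells are at 0 and leaving 1 out cannot move the ratio. Of the 592 genes, 344 had reads in a single GABA-marked cell, which was LS_9 for 265 of them, LS_39 for 47, LS_15 for 18 and LS_14 for 14. Without LS_39, 677 of 6532 genes (10.4%) were higher on the GABA side and 913 on the glutamate side. Without both LS_9 and LS_39 these were 343 (5.67%) and 1203 (19.9%) of 6052. Which cells enter the small GABA side thus moves the counts, and the high receptor-gene index of LS_9 and the microglia genes of LS_39 move with them, and their part in the result was not tested.

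Tac2, which encodes the tachykinin neurokinin B, was the 1 gene of 6244 (0.0160%) whose lowest GABA-marked cell lay above the highest glutamate-marked cell. It was at 32.4 FPKM in LS_9, 140 in LS_14, 537 in LS_15 and 44.4 in LS_39, and had reads in 2 of 30 glutamate-marked cells, at most 20.6 FPKM. The means were 189 ± 237 (SD, n = 4) and 1.01 ± 4.09 (SD, n = 30) FPKM, a log2 ratio of 6.56 with a range of 5.19 to 6.91 over leaving out each GABA-marked cell. No gene had its lowest glutamate-marked cell above every GABA-marked cell.

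The 12 genes with the largest log2 ratios on the GABA side, ranked by their weakest value over leaving out each GABA-marked cell, were Vip, Pnoc, Parm1, Cxcl14, Tac2, Crh, Cacng5, Zmat4, Pcp4l1, Tyms, Asic4 and Slc24a3. Of these, 4 encode secreted peptides and 1 a chemokine. Vip was listed at 36.1 FPKM in LS_9, 0 in LS_14, 5266 in LS_15 and 211 in LS_39. It was listed at 0 in all 30 glutamate-marked cells. For these the exact 95% binomial upper limit on the share of cells with a read is 11.6%, taking cells as independent. LS_9, LS_15 and LS_39 were the only 3 of the 63 cells of the series with Vip above 0, and LS_15 held by far the highest level.

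Pnoc, the precursor of the opioid-like peptide nociceptin, was at 75.6, 227, 123 and 0 FPKM in LS_9, LS_14, LS_15 and LS_39 and had no read on the glutamate side. Its pooled reads were at least 3493-fold higher on the GABA side, taking 3 reads as the floor over the glutamate-marked cells. Crh, the stress peptide corticotropin-releasing hormone, was at 0, 112, 372 and 0.743 FPKM in the same order, with at most 4.63 FPKM on the glutamate side in 2 of 30 cells. LS_14 and LS_15 thus held both peptides, whereas LS_39 had none or almost none.

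Cxcl14, a chemokine made by interneurons of the Htr3a class, was at 147, 454, 364 and 0 FPKM in the 4 cells, against a highest glutamate-marked value of 20.3. Its log2 ratio was 6.27, and 6.68 without LS_39. Parm1, a membrane mucin, was at 124, 176, 0 and 148 FPKM, against at most 7.80. Cacng5, an auxiliary subunit of AMPA receptors, was at 52.9, 138, 64.7 and 0 FPKM, and the proton-gated channel subunit Asic4 at 1.62, 117, 57.9 and 0. Slc24a3, which exchanges sodium for calcium and potassium, was at 69.5, 54.1, 55.1 and 0 FPKM and had reads in 13 of 30 glutamate-marked cells, the most of the 12 genes. In 6 of the 12 genes LS_39 had no read, so their values came from the other 3 cells.

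Tyms, which makes thymidylate for DNA synthesis, was of another kind. It was at 100 FPKM in LS_9 and 79.1 in LS_39 but at 0.202 in LS_14 and 0 in LS_15, and its log2 ratio of 4.25 became -1.13 without LS_9 and LS_39. Tyms thus rested on the 2 cells described above as standing apart, the high receptor-gene index of LS_9 and the microglia genes of LS_39 moved with it, and their part in the result was not tested. Zmat4, a zinc finger gene, was at 0, 87.2, 28.8 and 20.6 FPKM, and Pcp4l1, a small calmodulin-related protein, at 75.4, 8.17, 86.3 and 0.

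**Figure D2:**
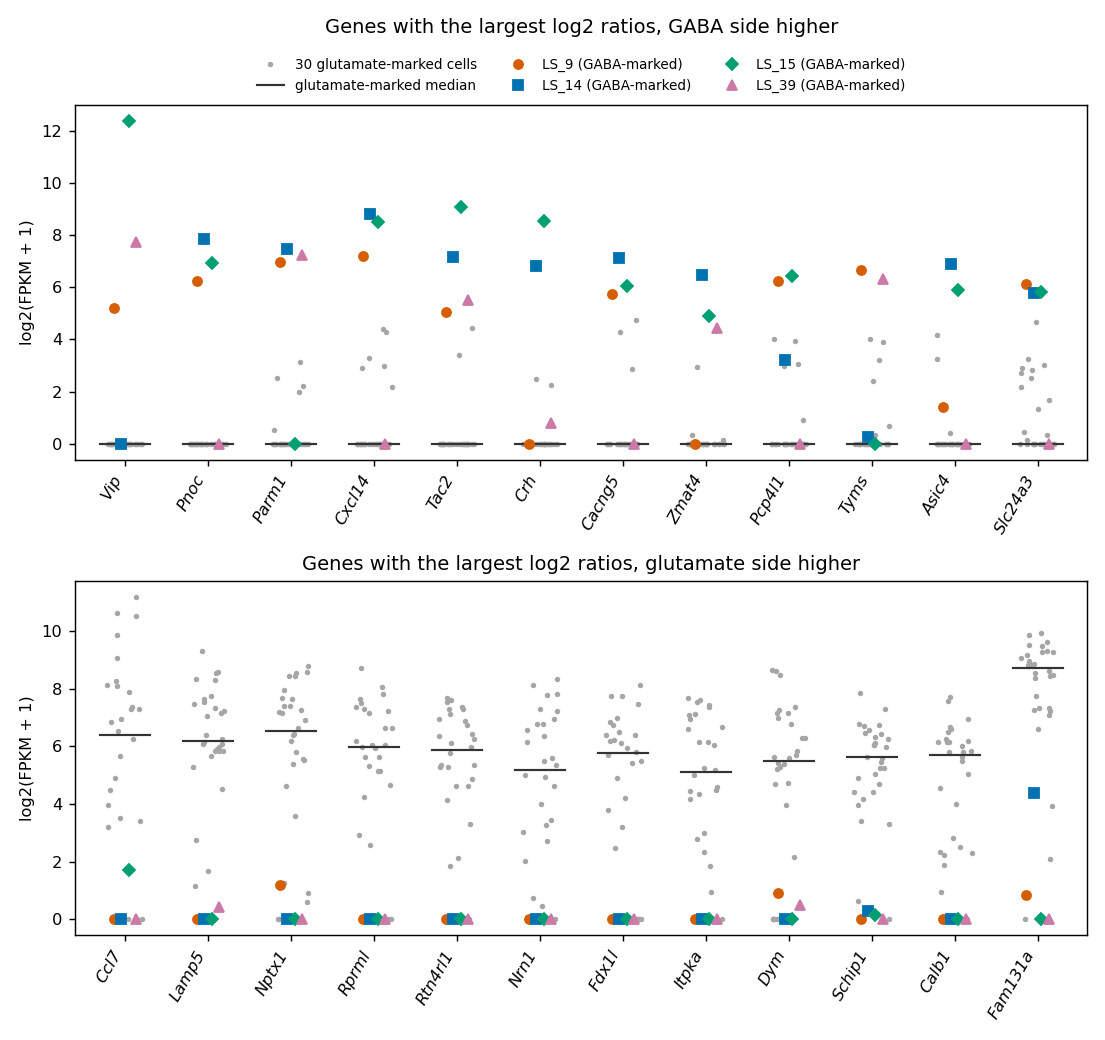
Level of the 12 genes with the largest log2 ratios on each side, as log2(FPKM + 1) on the y axis, with 1 grey point per glutamate-marked cell, a bar at their median and 1 coloured point per GABA-marked cell. Tac2 is the 1 gene whose 4 GABA-marked cells all lie above every grey point, and in the lower panel Rprml, Rtn4rl1, Nrn1, Fdx1l, Itpka and Calb1 are at 0 in all 4.

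On the glutamate side the corresponding 12 genes were Ccl7, Lamp5, Nptx1, Rprml, Rtn4rl1, Nrn1, Fdx1l, Itpka, Dym, Schip1, Calb1 and Fam131a. Nrn1, which encodes neuritin, a membrane-anchored protein of growing neurites, had no read in any GABA-marked cell. It had reads in 26 of 30 glutamate-marked cells, with a median of 35.9 and a highest value of 323 FPKM, and its pooled reads were at least 203-fold higher there. Rtn4rl1, a receptor of the Nogo family, had no read in the 4 either, against reads in 28 of 30 cells with a median of 57.3 FPKM, at least 396-fold higher. Its relative Rtn4r, the Nogo receptor itself, was likewise at 0 in all 4 and had reads in 27 of 30, with a median of 15.2 and a highest value of 137 FPKM, at least 127-fold higher. Both Nogo receptor genes were thus without a read in all 4 GABA-marked cells and common on the other side.

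Itpka, which phosphorylates inositol trisphosphate in spines, had no read in the 4 and a median of 33.3 FPKM in the 30, at least 198-fold higher in pooled reads. Calb1, a calcium buffer, had none in the 4 and a median of 51.3 FPKM, at least 436-fold higher. Nptx1, a secreted pentraxin that gathers AMPA receptors, was at 1.27 FPKM in LS_9 and 0 in the others, against a median of 92.3, a log2 ratio of -6.67. Lamp5, a membrane protein that also marks a class of GABA neurons, was at 0.335 FPKM in LS_39 and 0 in the others, against a median of 72.2 and reads in 29 of 30 cells, a log2 ratio of -7.01. All of these lay lower in every GABA-marked cell than in at least 25 of the 30 glutamate-marked cells.

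Fam131a was at 0.772, 20, 0 and 0 FPKM against a median of 417, the highest glutamate-side median of the 12. The chemokine gene Ccl7 was at 2.28 FPKM in LS_15 and 0 in the others, and had a median of 83.6 and a highest value of 2322 FPKM on the glutamate side. Its log2 ratio of -7.58 became 0.73 when LS_1, which the rule would put on the GABA side, was included. Schip1 was at most 0.224 FPKM in the 4 cells against a median of 48.3, Dym at most 0.892 against 44.6, and Rprml and Fdx1l at 0 against 61.4 and 53.1. Over all tested genes, 372 were at 0 in all 4 GABA-marked cells, and 15 of these had reads in at least 27 of the 30 glutamate-marked cells.

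Among GABA neuron genes, 5 of 22 in the table reached a mean of 10 FPKM, and 4 of the 5 passed the fold with the GABA side higher, beside 9.48% of all genes, with a median log2 ratio of 3.96. Without LS_39 these were 6 of 7, with a median of 4.01. A gene was tested when either side reached that mean, so members could enter through the GABA-marked cells in which they were high. The share and the median thus follow in part from the filter, as for the lists below. With no filter the median was smaller, as given in the last section. Dlx1, a homeodomain factor of the ganglionic eminences where cortical GABA neurons arise, was at 2.86, 173, 3.94 and 0 FPKM. Its log2 ratio was 4.81, and 0.99 without LS_14, so LS_14 decided it.

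The factors that mark the place of origin differed between the 4 cells. Adarb2, which marks GABA neurons of the caudal eminence, was at 54.6 FPKM in LS_14 and 35.3 in LS_15, 1.82 in LS_9 and 0 in LS_39. Lhx6, which marks those of the medial eminence, was at 25.2 FPKM in LS_9 and 0 in the other 3. Npas1, also found in GABA neurons of the caudal eminence, was at 42.1, 15.8, 55.5 and 0 FPKM, with a highest glutamate-marked value of 10.2. LS_9 also held 32.7 FPKM of Neurod6, a factor of glutamate neurons that was at 0 in the other 3 and at most 3.18 on the glutamate side. LS_9 thus held genes of both transmitter classes, its receptor-gene index was 34.5%, and the part of that index in these values was not tested.

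Of 14 tested interneuron subclass genes, 8 passed the fold with the GABA side higher, beside 9.48% of all genes, and 3 with the glutamate side higher, beside 14.6%, with a median log2 ratio of 3.28. Without LS_39, 9 and 2 of 16 passed, with a median of 3.30. The same filter acts on this list, and its median with no filter, given in the last section, was smaller. Pvalb and Sst, the markers of the classes of those names, had no read in any of the 4 cells. Htr3a, a serotonin-gated channel, was at 0, 167, 18.4 and 10.8 FPKM in LS_9, LS_14, LS_15 and LS_39. Only 2 of 30 glutamate-marked cells had a Htr3a read, with at most 8.21 FPKM.

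LS_14 and LS_15 carried different peptides and calcium-binding proteins. Npy, encoding neuropeptide Y, was at 284 FPKM in LS_14 and 0 in the other 3 GABA-marked cells. Calb2, encoding calretinin, was at 358 FPKM in LS_14 and 0 in the other 3, and the log2 ratios of 5.03 for Npy and 4.35 for Calb2 both turned negative without LS_14, at -1.14 and -2.15. Vip was the reverse, with 5266 FPKM in LS_15 and 0 in LS_14. Penk, the enkephalin precursor, was high in both, 990 FPKM in LS_14 and 1120 in LS_15. It was at 0 in LS_9 and 48.0 in LS_39, had reads in 12 glutamate-marked cells with up to 2137 FPKM, and its log2 ratio of 2.08 did not pass the fold.

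Kit, a receptor tyrosine kinase, was at 53.2, 33.9, 22.5 and 0 FPKM, and Cnr1, the cannabinoid receptor of axon terminals, at 68.7, 68.3, 13.4 and 2.89. Their log2 ratios were 3.71 and 2.84. Cck, encoding cholecystokinin, was at 379 and 516 FPKM in LS_9 and LS_15 and 0 in LS_14 and LS_39, but had a median of 1191 FPKM on the glutamate side and reads in 29 of its 30 cells. Cck together with Lamp5 and Calb1 made up the 3 subclass genes that passed in the other direction, but without LS_39 the log2 ratio of Cck was -2.33 and no longer passed. These 3 genes name GABA neuron classes in the cortex and were in these cells more abundant on the glutamate side.

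Of 24 tested glutamate neuron genes, none passed with the GABA side higher and 12 passed with the glutamate side higher, beside 14.6% of all genes, with a median log2 ratio of -2.49. Without LS_39, 12 of 25 passed in that direction and 1, Neurod6, in the other, with a median of -2.48. The 12 were Emx1, Cux2, Nrn1, Slc30a3, Sv2b, Rasgrf2, Otof, Nptx1, Enc1, Rtn4r, Nptxr and Pde1a. The homeodomain factor Cux2, a marker of upper cortical layers, was at 1.75, 0, 0.121 and 0 FPKM in LS_9, LS_14, LS_15 and LS_39. On the glutamate side it had a median of 5.39 and a highest value of 58.8 FPKM, with reads in 29 of 30 cells. Emx1, a factor of cortical progenitors and pyramidal cells, had no read in the 4 and reads in 17 of 30, with up to 78.6 FPKM.

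Nptxr, the receptor partner of the pentraxins, was at 6.82, 18.3, 0.470 and 0 FPKM, against a median of 139, with a log2 ratio of -4.59. The synaptic vesicle protein gene Sv2b was at 18.9, 0, 0 and 1.2 FPKM, against a median of 55.2. Slc30a3, which loads zinc into glutamate vesicles, was at 45.04 FPKM in LS_14 and at most 0.777 in the other 3, with a glutamate-side median of 47.4, and its log2 ratio lay just past the limit and was -2.12 without LS_39. Rasgrf2 was at 15.003 FPKM in LS_9 and Pde1a at 11.4 in LS_14, and each was at 0 in the other 3. Of the members that did not pass, Hpca, a neuronal calcium sensor, was the most abundant, at 120, 145, 26.2 and 0 FPKM against a median of 127. Mef2c was at 7.71 to 12.4 FPKM in the 4 cells against a median of 56.4, and its log2 ratio of -2.48 lay just inside the limit. The whole list summed to 56.3 to 481 FPKM in the GABA-marked cells, and 27 of 30 glutamate-marked cells lay above the highest of them.

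Of 24 tested spine and postsynaptic kinase genes, 7 passed with the glutamate side higher, beside 14.6% of all genes, and none with the GABA side higher, beside 9.48%, with a median of -1.28. They were Nrgn, Itpka, Ddn, Dlg3, Baiap2, Dlgap2 and Dlgap3. Without LS_39, 6 of 25 passed, with a median of -1.01, and Dlgap2, with a log2 ratio of -2.40, no longer did. Nrgn, encoding the calmodulin-binding spine protein neurogranin, was at 3.03 FPKM in LS_9, 1.69 in LS_14, 0 in LS_15 and 52.7 in LS_39, against a median of 364 and reads in all 30 glutamate-marked cells. Its log2 ratio was -4.82 and moved to -7.40 without LS_39. Ddn, encoding dendrin, and the scaffold gene Dlg3 had no read in the 4, against medians of 10.8 and 8.12 FPKM.

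Camk2a, the alpha subunit of the calcium/calmodulin kinase of excitatory synapses, did not pass. It was at 257, 594, 28.7 and 287 FPKM in LS_9, LS_14, LS_15 and LS_39, against a median of 717, a log2 ratio of -1.22. LS_14 thus held a Camk2a level within the range of the glutamate-marked cells. Its Nrgn level was 1.69 FPKM, and of the glutamate-marked cells only LS_4, at 1.05 FPKM, was lower. Ppp1r1a, an inhibitor of a protein phosphatase, was at 111, 135, 98.1 and 0 FPKM against a median of 180, also short of the limit.

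**Figure D3:**
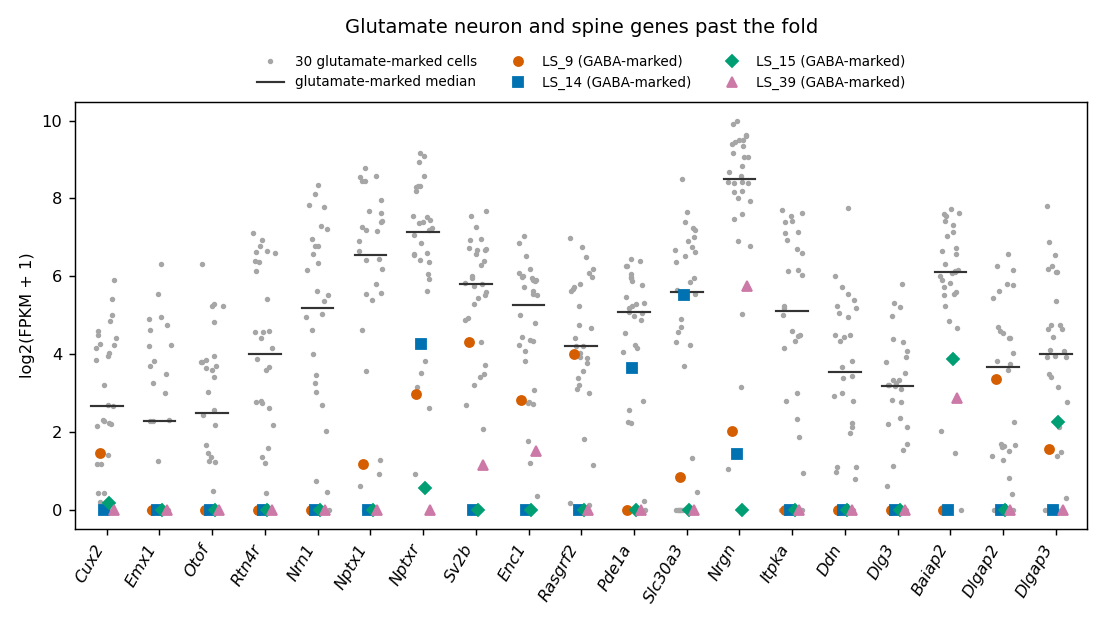
Level of the 12 glutamate neuron genes and 7 spine genes past the fold, as log2(FPKM + 1), with grey points for the 30 glutamate-marked cells, a bar at their median and coloured points for the GABA-marked cells. Emx1, Otof, Rtn4r, Nrn1, Itpka, Ddn and Dlg3 are at 0 in all 4, and in Slc30a3 the point of LS_14 (45.04 FPKM) lies at the bar.

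Of 12 tested transmitter genes, 2 passed with the GABA side higher, among them Slc6a11, and 1 with the glutamate side higher, Slc12a5, with a median of 0.05. These shares are near the 9.48% and 14.6% of all genes, and the counts were as many without LS_39, with a median of 0.032. Slc12a5, the chloride extruder KCC2 that sets the direction of GABA currents, was at 2.67, 3.48, 0 and 0 FPKM against a median of 23.3, with reads in all 30 cells. Slc6a11, a GABA transporter of astrocytes, was at 56.9 FPKM in LS_9 and 0 in the other 3, and its log2 ratio of 3.04 became -0.89 without LS_9. Abat, which breaks GABA down, was at 15.6, 52.6, 7.14 and 0 FPKM against a median of 1.76.

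Of 8 tested GABA receptor subunits, 1 passed, Gabrd, the delta subunit of receptors outside the synapse, a share near the 14.6% of all genes. It had no read in the 4 GABA-marked cells and reads in 21 of 30 glutamate-marked cells, with a median of 15.5 and a highest value of 194 FPKM, at least 157-fold higher in pooled reads. The list's median was -0.52, and -0.26 without LS_39, with 1 of 8 still past the fold.

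Of 12 tested glutamate receptor genes, 5 passed with the glutamate side higher, beside 14.6% of all genes, and none with the GABA side higher, with a median of -1.90. Without LS_39, 4 of 15 passed in that direction and 1 in the other, with a median of -1.34, and Gria1, with a log2 ratio of -2.37, no longer did. The AMPA receptor subunit Gria3 was at 0.223 FPKM in LS_9 and 0 in the other 3, against a median of 25.3 and reads in 29 of 30 cells, a log2 ratio of -4.71. Gria1 was at 1.82, 5.99, 6.03 and 0.649 FPKM, against a median of 28.2 and reads in all 30. The metabotropic receptor gene Grm7 was at 0.374 FPKM in LS_9 and 0 in the other 3. The auxiliary subunit Cacng3 was at 32.5 FPKM in LS_9 and 0 in the other 3, against a median of 47, whereas Cacng5 of the same family was among the genes higher on the GABA side. Grin1, the obligate NMDA receptor subunit, was at 42.7, 31.3, 13.3 and 0.809 FPKM against a median of 39.2 and did not pass. Gria2 was at 12, 11.4, 14.7 and 0.0631 FPKM against 29.2 and did not pass either.

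Of 13 tested channel genes, 4 passed with the glutamate side higher, among them Scn3b and Cacna1e, beside 14.6% of all genes, with a median of -1.38. Cacna1e, a subunit of voltage-gated calcium channels, was at 2.57, 0, 2.64 and 0 FPKM, against a median of 23 and reads in all 30 glutamate-marked cells. Without LS_39, 3 of 15 passed, with a median of -0.13, and Scn3b, with a log2 ratio of -2.46, no longer did. Kcnc2, a potassium channel gene known from fast-spiking neurons, was at 0, 30.9, 35.9 and 0 FPKM, with a log2 ratio of 0.54. Of 8 tested neuromodulator receptor genes, 1 passed in each direction, near the shares of all genes, with a median of 0.041. Without LS_39 it was also 1 of 9 in each, with a median of 1.10. Chrna4 passed with the GABA side higher, at 58.8 FPKM in LS_9 and 0 in the other 3, and turned to -0.32 without LS_9. Cckbr, the brain receptor for cholecystokinin, passed in the other direction, at 0.794 FPKM in LS_9 and 0 in the other 3 against a median of 47.9 and reads in 22 of 30.

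The levels of activity-regulated genes differed widely between the GABA-marked cells. Of 25 tested, 1 passed with the GABA side higher, Fos, and 6 with the glutamate side higher, Egr4, Arc, Npas4, Bdnf, Nptx2 and Per1, beside 9.48% and 14.6% of all genes, with a median of 0.74. Without LS_39, 2 and 6 of 24 passed, the second of the 2 being Vgf, with a median of 0.21. Fos was at 0 FPKM in LS_9, 394 in LS_14, 6175 in LS_15 and 12613 in LS_39. On the glutamate side its lowest value was 0, its median 141 and its highest 1998 FPKM, with reads in 26 of 30 cells. LS_39 and LS_15 thus held the 2 highest Fos levels of the 63 cells, the next being 2426 FPKM. Fos took 3.61% of all reads in LS_39 (exact 95% binomial interval 3.57% to 3.65%), 1.75% in LS_15 (1.72% to 1.77%) and 0.110% in LS_14 (0.104% to 0.115%). In LS_9 it had 0 of 369827 reads. The log2 ratio of Fos was 3.66, and 2.53 without LS_39.

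Some other early genes were also high in the same 2 cells. Junb, a partner of Fos, was at 38.3, 171, 1385 and 1795 FPKM in LS_9, LS_14, LS_15 and LS_39, against a highest glutamate-marked value of 675. Egr1, a zinc finger factor, was at 11.3, 853, 1809 and 5365 FPKM, against a highest of 3075. Neither passed, with log2 ratios of 2.24 and 1.86. LS_39 exceeded every glutamate-marked cell in 9 of the 28 listed genes and LS_15 in 6, and Fos, Jun, Junb and Ier2 were among both. LS_14 did so in 1 gene and LS_9 in 0. In LS_9, 18 of the 28 genes were at 0. The matching shares over all genes were not counted, so these counts describe the listed genes only.

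The 6 genes of the other direction were not high in the cells with high Fos. Arc, whose product acts at the spine, and Npas4, a factor specific to neurons, had no read in any of the 4, but reads in only 11 and 8 of 30 glutamate-marked cells. Bdnf, a neurotrophin, was at 0.158 FPKM in LS_39 and 0 in the other 3, against a highest value of 536. Egr4 was at 3.39 FPKM in LS_15 and 0 in the other 3, against a median of 32.8, and Per1 at 28.2, 3.71, 0 and 0, against a median of 60.5 with reads in all 30. Nptx2, a secreted pentraxin induced by activity, was at 9.56 FPKM in LS_9 and 0 in the other 3. Vgf, a secreted neuropeptide precursor, was at 73.4, 240, 108 and 0 FPKM against a median of 14.2, with a log2 ratio of 2.18, and was the 1 listed gene in which LS_14 exceeded every glutamate-marked cell. In LS_39 the microglia sum of 5052 FPKM moved with the Fos level, and its part in the result was not tested. LS_15 had a microglia sum of 207 FPKM, below the glutamate-side median of 499. Its pan-neuronal sum was 1102 FPKM against a glutamate-side median of 3818, and its oligodendrocyte lineage sum was 12155 against 5076. The part of these in its Fos level was not tested either.

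**Figure D4:**
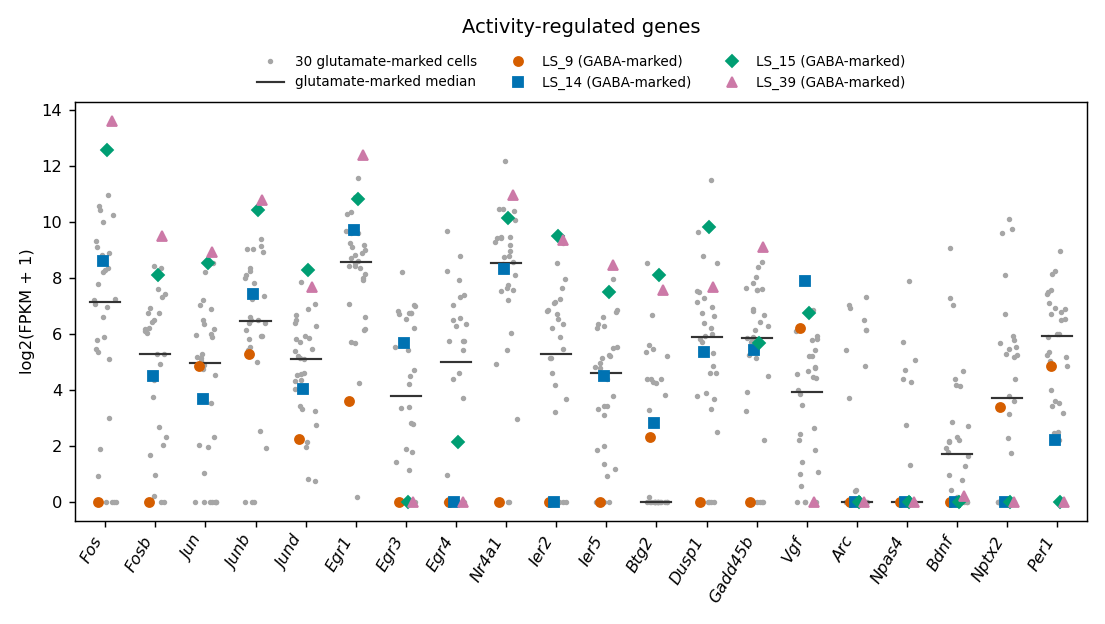
Level of 20 activity-regulated genes as log2(FPKM + 1), with grey points for the 30 glutamate-marked cells, a bar at their median and coloured points for the GABA-marked cells. Fos, Jun, Junb and Ier2 of LS_15 and LS_39 lie above every grey point, LS_9 is at 0 for Fos, and Arc and Npas4 are at 0 in all 4.

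Genes of other cell types were described over their whole lists. Microglia genes summed to 1035, 169, 207 and 5052 FPKM in LS_9, LS_14, LS_15 and LS_39. Of 11 tested, 1 passed with the GABA side higher, a share near the 9.48% of all genes. It was Cx3cr1, the fractalkine receptor, at 640 FPKM in LS_9 and 0 in the other 3, including LS_39. Its log2 ratio of 3.66 became -3.67 without LS_9, and the list's median of 0.77 became -2.69 without LS_39. Astrocyte genes summed to 322, 748, 1025 and 3599 FPKM against a glutamate-side range of 56.8 to 2892. Of 8 tested, Slc1a3 and Sox9 passed with the GABA side higher, beside 9.48% of all genes. Aldoc passed with the glutamate side higher, beside 14.6%. Sox9 was at 645 FPKM in LS_39 and 75.1 in LS_14, and its log2 ratio of 2.73 became -0.049 without LS_39. Without that cell the log2 ratio of Slc1a3 was 2.47, so neither passed.

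Oligodendrocyte lineage genes summed to 1753, 2396, 12155 and 5543 FPKM, within the glutamate-side range of 15.6 to 28633. Of 5 tested, Mobp, a myelin gene, passed with the GABA side higher, beside 9.48% of all genes. It was at 128 FPKM in LS_39, and its log2 ratio of 3.57 became -1.18 without that cell. Of 12 listed members, 4, 3, 5 and 4 were above 0 in LS_9, LS_14, LS_15 and LS_39, against 2 to 7 on the glutamate side. Mog, Sox10, Mal and Pdgfra were at 0 in all 4 and had reads in 1, 2, 4 and 6 of the 30 glutamate-marked cells. Of the rule genes, Mbp was at 69.999 FPKM and Olig2 at 21.7 in LS_9. Of 5 tested vascular genes, Cldn5 passed with the glutamate side higher, beside 14.6% of all genes. It had reads in 4 of 30 cells and none in the 4. Blood genes summed to at most 57.6 FPKM in the 4 cells and to 62063 in LS_45. Of 5 tested, the 4 haemoglobin genes of the list passed with the glutamate side higher, beside 14.6% of all genes. The log2 ratio of Hbb-bs moved from -9.75 to -4.07 without LS_45. Of 11 mitochondrial genes tested none passed, with a median of 0.39. Of 21 pan-neuronal genes, Nefl and Gap43 passed with the glutamate side higher, beside 14.6% of all genes, with a median of -0.60. Without LS_39, 2 of 21 again passed in that direction, with a median of -0.24.

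**Figure D5:**
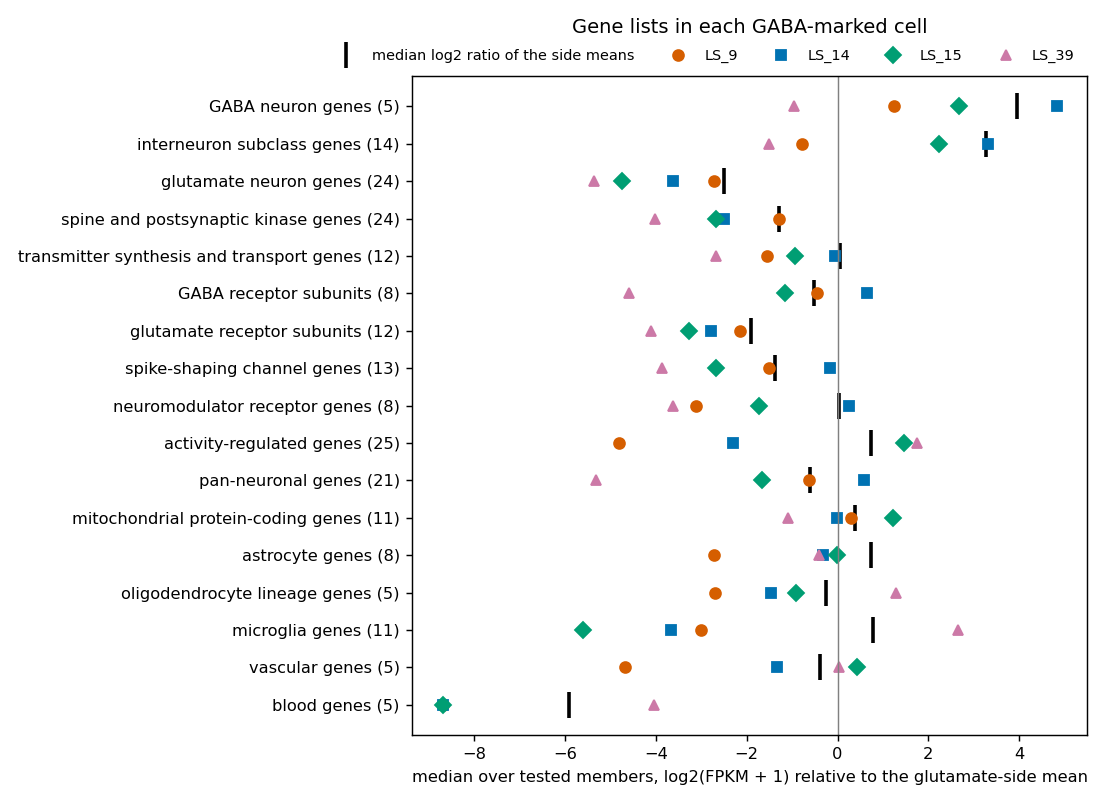
For each gene list, with the number of tested members in brackets, the median over those members of log2(FPKM + 1) in 1 GABA-marked cell minus log2 of the glutamate-side mean plus 1 (coloured points), and the median log2 ratio of the side means (black bar). Glutamate neuron genes lie below 0 in all 4 cells (-5.36 to -2.72), activity-regulated genes lie above 0 in LS_15 and LS_39 and below 0 in LS_9 and LS_14, and for blood genes the points of LS_9, LS_14 and LS_15 coincide at -8.69.

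Over 18117 genes reaching 1 FPKM in any of the 34 cells, the Pearson correlation of log2(FPKM + 1) had a median of 0.332 over the 6 pairs of GABA-marked cells, 0.486 over the 435 glutamate pairs and 0.398 over the 120 mixed pairs. LS_14 and LS_15 were the GABA-marked pair with the highest value, 0.498. LS_9 correlated with the glutamate-marked cells at 0.235 to 0.318 and LS_14 at 0.350 to 0.547. For LS_15 this was 0.393 to 0.600 and for LS_39 0.269 to 0.419. The highest value with another GABA-marked cell was 0.305 for LS_9, 0.498 for LS_14 and LS_15, and 0.413 for LS_39. Each GABA-marked cell was thus closer to its nearest glutamate-marked cell than to any other GABA-marked cell. The glutamate side offers 30 partners to each, so its highest value has more chances. The points share depth and background differences.

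The same rule applied to the 17 NS cells put 6 on the GABA side and 2 on the glutamate side, with 4 dropped and 5 without a read of the 4 markers. GABA-marked cells were thus 75% (exact 95% binomial interval 34.9% to 96.8%) of 8 divided NS cells and 11.8% (3.30% to 27.5%) of 34 divided LS cells. The NS libraries held 134901 to 876800 reads, with a median of 280720 that lay below the lowest of the 34 LS members. The cells of each group may share mice, whereas the intervals take cells as independent, so they do not compare the groups. The difference was not tested. Vip was at 0 in all 6 GABA-marked NS cells, and Tac2 and Sst were at 249 and 9164 FPKM in 1 of them and at 0 in the others. Fos had a median of 1.9996 FPKM over these 6 cells, with a highest value of 503. In LS_8, the dropped LS cell, Gad1 and Dlx1 were at 91.3 and 28.8 FPKM, Parm1 at 617, Cxcl14 at 220 and Crh at 41.6. Vip, Tac2, Fos, Lamp5, Nptx1 and Itpka were at 0 there. Of the other glutamate-side genes, LS_8 held Fdx1l at 183 FPKM, Dym at 178, Schip1 at 20.1, Rprml at 18.9, Calb1 at 12.8 and Rtn4rl1 at 8.81. Ccl7, Fam131a and Nrn1 were at 5.96, 2.51 and 1.35. In the GABA-marked NS cells, Dym had reads in 4, Nptx1 and Schip1 in 3, Lamp5, Calb1 and Fam131a in 2, and Nrn1 and Rtn4rl1 in 1. Ccl7, Rprml, Fdx1l and Itpka had none there.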

How the data were processed

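Single aspirated somata of mouse V1 layer 2/3 neurons were amplified by Smart-seq2 and sequenced. The submitters' processing notes name STAR 2.5.3a, featureCounts and the build GRCm38. The authors deposited 1 table of FPKM for 20183 genes in 63 cells, and its 4 genes with repeated names were left out. No mouse is named for any cell, so cells were not treated as replicates and no test was made. The SDs and ranges describe cells.

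Reads were recovered from the deposited FPKM steps. For 12095 genes the exon length came from the annotation, for 6565 it was solved from the values, and 1519 genes stayed unsolved, among them Vip. Below 200 reads, 99.998% of values in solved genes were whole within 0.01 read. Lengths were accepted by how whole such values were, at 90% or more for annotated lengths. This share therefore follows in part from that rule. The recovered counts served depth, shares, pooled ratios and fold bounds, for which 3 reads over a group was the floor. A fold given as at least some value sets 0 pooled reads to that floor. It does not cover the spread between cells. No count test was run, since each side is 1 sample.

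The members and the gene lists were chosen with earlier results of these data known. The fold limit was a log2 ratio of 2.5 between side means with 1 FPKM added, for genes with a mean of at least 10 FPKM on either side. The 10 rule genes were left out. Named genes were the 12 on each side with the largest weakest log2 ratio over leaving out each GABA-marked cell, among those above 0 in at least 75% of cells of the higher side with a mean of at least 20 FPKM there, the list members past the fold, and the most abundant members that did not pass. Lhx6, Neurod6, Penk, Abat, Kcnc2 and other list members named with values below the fold were chosen after their values were seen. Of 345 list genes, 341 were in the table. Some genes are counted in their lists and not reported here by name. The receptor-gene index used 1031 genes.

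Alternatives changed the pseudocount, the summary over cells, the unit, the depth (thinning to 200000 reads), the member rule, the filter on low values and the cells included. Promoters came from RefSeq windows in GRCm38.p6, and all 4 genes wanted were matched. Scripts ran under Python 3.11.15 with scipy 1.17.1, pandas 2.3.3 and numpy 2.4.6, and were checked on simulated data. There, all 200 differences put in were recovered in direction, but only 142 came within the set tolerance of their size.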

Additional observations from a re-analysis of the deposited data

Results flagged for a closer look

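In 29 of 100 values looked at, 1 of the 4 GABA-marked cells lay apart from the other 3, with a gap to its nearest neighbour above Dixon's critical share of the whole range on the log2(FPKM + 1) scale. For normally distributed values, chance alone sets apart about 1 in 20 groups. Many of these are genes at 0 in 3 of the 4 cells, where the share is 1 whatever the remaining value. The count of 29 therefore cannot be set against that rate. LS_9 stood apart for Nptx1 (1.27 FPKM), Cux2 (1.75), Rasgrf2 (15.003), Dlgap2 (9.31), Slc6a11 (56.9), Gria3 (0.223), Grm7 (0.374), Cacng3 (32.5), Chrna4 (58.8), Cckbr (0.794), Nptx2 (9.56) and Cx3cr1 (640), each above the other 3 cells. Its median difference from the glutamate mean over astrocyte genes was also apart, at -2.73 on the log2 scale.

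LS_14 was apart and higher for Npy (284 FPKM), Calb2 (358), Slc30a3 (45.04), Pde1a (11.4), Nefl (5.99) and Gap43 (33.4). LS_15 was higher for Ccl7 (2.28 FPKM) and Egr4 (3.39), and lower for Parm1, at 0. LS_39 was higher for Lamp5 (0.335 FPKM), Bdnf (0.158), Mobp (128), Hba-a1 (32.6) and Hba-a2 (25.007), lower for Slc24a3, at 0, and had a median difference of -4.04 over blood genes. The low values of Gria3, Grm7, Lamp5 and Bdnf are small beside the glutamate-side values of these genes.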

How the results depend on the processing

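Of 83 genes that the naming rule gave, 73 had the same direction under all 46 settings that gave a value. Of the size-ranked genes, 11 of 12 on the GABA side and 8 of 12 on the glutamate side stayed past the fold throughout. Both counts follow in part from the choice of genes. The size-ranked genes were chosen by leaving out each GABA-marked cell, and most other named genes by passing the fold. Settings that leave out 1 cell, 4 on the GABA side and 30 on the glutamate side, are among the 46. The difference of mean log2 values gave 167 genes higher on the GABA side and 392 on the glutamate side. A mean of at least 50 FPKM gave 143 and 87. Keeping marker-positive cells gave 578 on the glutamate side. With no filter, the count of genes past the fold, glutamate side higher, was 1667, and the medians were 1.32 for GABA neuron genes and 0.79 for subclass genes. Leaving out 1 GABA-marked cell gave 383 (without LS_9) to 795 (without LS_15) genes on the GABA side and 913 to 1422 (without LS_14) on the glutamate side. Leaving out 1 glutamate-marked cell gave 590 to 617 and 888 to 921. The list medians over both kinds of omission were 3.09 to 4.11 for GABA neuron genes, 1.61 (without LS_14) to 3.999 for subclass genes, -3.25 to -2.43 for glutamate neuron genes, -1.51 to -1.01 for spine genes and 0.21 to 1.26 for activity genes.

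The direction turned in these cases, and the cause was not tested. With all 46 LS cells, Ccl7 was 0.73 and Aldoc 1.67. With the receptor-gene index under 10%, Slc6a11 was -0.77, Chrna4 -0.36 and Cx3cr1 -3.67. Without LS_9, alone or with LS_39, they were -0.89, -0.32 and -3.67. Without LS_14, Npy was -1.14 and Calb2 -2.15. Without LS_39, Sox9 was -0.049 and Mobp -1.18. Over leaving out each other cell, the highest values were 3.43 for Slc6a11, 4.04 for Chrna4, 4.28 for Cx3cr1, 5.88 for Npy, 6.501 for Calb2, 3.20 for Sox9 and 3.98 for Mobp. A pair of settings was chosen after seeing the data. Without LS_9 and LS_39, 343 genes were higher on the GABA side, Tyms was -1.13 and Mobp -1.47. With pan-neuronal sums of at least 500 FPKM, Mobp was -1.16. No paired analysis was possible because LS and NS share replicate numbers only as names and the results come from no test. The 4 GABA-marked cells and the unnamed mice limit every value.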
